A study of Mus musculus with 10 samples.

Results

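The mitochondrial ribosomal protein genes were taken as every gene in both deposited expression tables whose symbol is Mrpl or Mrps followed by a number and at most 1 letter, with symbols of processed copies (ending in -ps and a digit) left out. The rule found 77 genes among the 46786 of the 3-month table and the same 77 among the 46977 of the 12-month table. RNA was sequenced from whole dissected hearts of mice labelled control or Prdm16 knockout. There were 3 control and 3 knockout libraries at 3 months of age, and 2 control and 2 knockout libraries at 12 months. The labels name no strain, sex, allele, Cre driver or treatment, and they do not say that replicates came from separate animals, so every p-value here measures only the spread between these libraries. The 3-month libraries were poly(A)-selected and strand-specific, whereas the 12-month libraries were made at another site, so age and library preparation cannot be told apart.

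The mitochondrial ribosome (mitoribosome) sits in the mitochondrial matrix and makes the few respiratory-chain subunits that mitochondrial DNA still encodes. Its RNAs come from mitochondrial DNA, but all its proteins are encoded in the nucleus, made by cytosolic ribosomes and imported. Part of them descend from bacterial ribosomal proteins and the rest were added during mitochondrial evolution. The heart depends heavily on oxidative phosphorylation, and inherited faults in several of these genes, among them those in Mrpl3, Mrpl44 and Mrps22, cause cardiomyopathy in patients.

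By subunit, 50 of the 77 genes encode proteins of the large subunit, which holds the peptidyl transferase centre, and 26 encode proteins of the small subunit, which reads the codons. Mrps18a and Mrps30 carry small-subunit names but their proteins sit in the large subunit, and they were counted there. Mrps36, in spite of its name, encodes a component of the alpha-ketoglutarate dehydrogenase complex and was counted in neither subunit. By descent, 45 of the genes were classed as having a bacterial counterpart and 30 as specific to mitochondria. Mrps18a (a paralogue of a bacterial-type protein) and Mrps36 were put in neither class. Mrps18b, of the same paralogue family, and Mrpl55 were classed as specific to mitochondria, and the placing of single genes was not checked further.

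Prdm16, the targeted gene, encodes a zinc-finger transcriptional regulator. At 3 months it read 1.44, 2.23 and 1.61 FPKM (fragment counts divided by transcript length and library depth) in control libraries, against 1.43, 0.76 and 2.03 with the knockout label, and the groups overlap. The difference on the log2(FPKM + 1) scale was -0.22 (SE 0.21, limma, adjusted p = 0.602), and p was 0.4 in a 2-sided exact permutation test that cannot go below 0.1. The 12-month values were 6.31 and 5.05 against 4.02 and 3.58 FPKM, so both knockout libraries were lower, but neither limma (-0.47, SE 0.15, adjusted p = 0.340) nor the exact permutation test, which with 2 against 2 cannot reach 0.05, passed. A gene-level value can hold reads from exons outside a deleted stretch, so it does not check the labels at 3 months, and directions below are those of the libraries as labelled.

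At 12 months the labels also divide the hearts by sex-linked expression. Xist, the RNA of the inactive X chromosome, averaged 32.1 ± 1.45 FPKM in control libraries against 0.0575 ± 0.0475 FPKM with the knockout label (SD, n = 2 each). The Y-linked gene Ddx3y averaged 0.0233 ± 0.0169 FPKM in control libraries against 22.6 ± 2.70 FPKM with the knockout label (SD, n = 2 each). Label and sex-linked expression therefore cannot be told apart at 12 months, and this holds for every 12-month value below. At 3 months Ddx3y lay between 16.5 and 19.9 FPKM in all 6 libraries.

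Cardiomyocyte markers were present in every library, at a summed 36552 to 49166 FPKM at 3 months and 76292 to 85044 at 12 months. At 3 months their sums did not overlap (36552 to 44935 in controls, 46864 to 49166 in knockout libraries), and none of the 9 passed the test. Summed red blood cell markers were 818 to 1113 against 2082 to 3111 FPKM at 3 months, with all 5 tested markers called higher. The 12-month sums were 10647 to 10783 against 1956 to 2157 FPKM, with the 5 called lower. Atrial markers (716 to 6193 against 12317 to 28666 FPKM, Nppa called higher) and lymphocyte markers (4.27 to 6.21 against 11.5 to 17.4 FPKM, Nkg7 and Gzma called higher) also stood apart at 3 months. At 12 months the sums of more marker lists did not overlap. The sums of cardiomyocyte (76292 to 76545 against 80106 to 85044 FPKM), atrial (6172 to 6334 against 13624 to 15878) and macrophage markers (183 to 186 against 209.5 to 220.3) were higher in the knockout libraries. Those of fibroblast (1054 to 1066 against 743 to 843) and lymphocyte markers (12.6 to 14.6 against 4.82 to 11.0) were lower. None of the genes of these lists was called. Gene by gene, 5 of 9 cardiomyocyte, 2 of 6 atrial and 4 of 7 macrophage markers were higher. The other 4 atrial markers had both knockout libraries below both controls. Of the fibroblast markers 1 of 7 was higher, and of the lymphocyte markers tested 0 of 4. Summed adipocyte markers were 639 to 645 against 729 to 1401 FPKM, yet Plin1, a lipid droplet protein (-2.09, limma, adjusted p = 0.0410), and Ucp1, the uncoupling protein of brown fat (-3.23, adjusted p = 0.0130), were called lower. The part of these cell types in the results below was not tested. In bulk tissue, fewer cells of a type and less RNA per cell cannot be told apart.

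The start regions of the members were searched for sites of known regulators, since these regions are where the genes could share control elements. RefSeq promoter windows, from 250 bases before to 50 after the start (GRCm38.p6), were found for 68 of the 77 genes and not for 9. They were searched on both strands for GCGCNTGCG, most of the palindromic core bound by the nuclear respiratory factor NRF1, for CCGGAAG, the core of ETS-family sites including those of GABPA, and for AANATGGCG, the YY1 core. NRF1 and GABPA are textbook regulators of nuclear genes for mitochondrial proteins. The NRF1 core was found in 18 of the 68 windows (26.5%), against 15.7% of genes tested at 3 months and 7.12% of all genes with a window. The ETS core was in 25 (36.8%, against 20.5% and 9.93%) and the YY1 core in 10 (14.7%, against 6.43% and 2.76%). At least 1 of the 3 was in 63.2% of the windows, against 36.3% of those of tested genes.

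These 4 sequences are printed 5′ to 3′ on the strand of the gene, as the 250 bases before the RefSeq start, with motif matches in capitals. Mrpl17 (chr7:105811088-105811337, minus strand) and Mrpl28 (chr17:26123253-26123502, plus strand) were among the 5 members with the highest 3-month differences. Mrpl45 (chr11:97315466-97315715, plus strand) and Mrps22 (chr9:98601680-98601929, minus strand) were among the 5 lowest at 12 months. The stretches printed hardly overlap the annotated gene, but the same holds for Mrps12 and Mrpl34, which are also among these extremes and were left out. The 4 therefore do not stand for all of them. Over the whole windows a match to any of the 3 motifs was found in 3 of the 5 highest members at 3 months and in 1 of the 5 lowest, and in 3 of the 5 highest and 3 of the 4 lowest with a window at 12 months. Mrps6, the highest at 3 months, and Mrpl47, the lowest at 12 months, had none.
Mrpl17: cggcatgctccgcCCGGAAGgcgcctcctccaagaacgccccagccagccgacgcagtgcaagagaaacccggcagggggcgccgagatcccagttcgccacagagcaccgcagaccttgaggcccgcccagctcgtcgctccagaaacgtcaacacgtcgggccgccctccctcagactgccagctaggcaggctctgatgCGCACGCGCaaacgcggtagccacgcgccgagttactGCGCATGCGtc
Mrpl28: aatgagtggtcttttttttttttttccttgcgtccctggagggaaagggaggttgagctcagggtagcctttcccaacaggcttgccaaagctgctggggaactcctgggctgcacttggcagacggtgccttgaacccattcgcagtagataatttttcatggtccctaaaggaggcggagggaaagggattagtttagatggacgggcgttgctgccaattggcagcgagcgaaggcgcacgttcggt
Mrpl45: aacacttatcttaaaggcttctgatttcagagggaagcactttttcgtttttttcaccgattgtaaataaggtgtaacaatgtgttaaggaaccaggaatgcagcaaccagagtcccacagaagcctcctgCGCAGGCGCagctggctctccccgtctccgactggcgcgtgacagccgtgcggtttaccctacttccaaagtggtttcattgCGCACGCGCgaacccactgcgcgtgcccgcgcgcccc
Mrps22: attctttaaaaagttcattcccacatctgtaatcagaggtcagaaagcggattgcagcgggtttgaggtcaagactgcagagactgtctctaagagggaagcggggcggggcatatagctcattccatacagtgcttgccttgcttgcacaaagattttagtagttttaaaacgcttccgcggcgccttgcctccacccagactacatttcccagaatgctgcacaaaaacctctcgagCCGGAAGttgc
Mrpl17 holds 1 ETS and 2 NRF1 matches, Mrpl45 holds 2 NRF1 matches, Mrps22 holds 1 ETS match, and none of the 3 motifs is in the letters of Mrpl28. Members with an NRF1 match had a median 3-month difference of 0.18 on the log2 scale and members without one 0.25. For the ETS core these medians were 0.29 and 0.23, and for the YY1 core 0.18 and 0.26. A match is only a string of letters in this window, and no binding was measured.

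A second sequence feature bears on how far single values can be trusted. The reading frames of 20 of the 77 genes have a near-identical transcript elsewhere in the annotation (at least 95% identity over at least 50% of the frame), most of them processed pseudogenes. For 13 of them a copy stood at a mean of 1 FPKM or more at 3 months and for 12 at 12 months. The sources used here do not say how the authors assigned reads shared by such copies, so these members are uncertain. The 20 are Mrpl21, Mrpl22, Mrpl23, Mrpl27, Mrpl32, Mrpl33, Mrpl41, Mrpl42, Mrpl43, Mrpl48, Mrpl51, Mrpl53, Mrps5, Mrps10, Mrps16, Mrps18b, Mrps21, Mrps26, Mrps33 and Mrps36.

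Mrpl23, whose bacterial counterpart helps form the exit of the nascent-chain tunnel, is the clearest case. It lies on chromosome 7 (142532686 to 142540747, plus strand), and its processed pseudogene Mrpl23-ps1 lies on chromosome 2 (74591330 to 74591909, minus strand). The 2 are identical over 424 of the 519 bases of the reading frame (81.7%). The 150 bases from base 96 of the frame, which are the same letters in both, are printed to show how little a short read has to tell them apart.
Mrpl23 and Mrpl23-ps1: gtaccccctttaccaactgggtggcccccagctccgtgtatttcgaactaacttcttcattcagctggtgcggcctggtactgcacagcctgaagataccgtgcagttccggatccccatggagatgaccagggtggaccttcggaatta
Mrpl23 averaged 1.70 FPKM over the 3-month libraries and Mrpl23-ps1 125 FPKM. In the 12-month libraries the means were 0.845 and 30.7 FPKM, which put Mrpl23 under the minimum for testing. Mrpl23 was the lowest of the 77 genes at both ages.

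Mrps33, a small-subunit protein gene specific to mitochondria, differs from the pseudogene Gm5776 by 1 base in the first 300 of its 321-base frame, printed in capitals.
Mrps33: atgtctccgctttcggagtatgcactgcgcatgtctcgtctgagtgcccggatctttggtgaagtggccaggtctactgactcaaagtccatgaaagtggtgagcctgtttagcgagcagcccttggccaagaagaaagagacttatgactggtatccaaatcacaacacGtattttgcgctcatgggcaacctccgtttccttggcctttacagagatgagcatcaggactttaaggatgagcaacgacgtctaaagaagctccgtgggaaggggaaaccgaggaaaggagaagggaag
Gm5776: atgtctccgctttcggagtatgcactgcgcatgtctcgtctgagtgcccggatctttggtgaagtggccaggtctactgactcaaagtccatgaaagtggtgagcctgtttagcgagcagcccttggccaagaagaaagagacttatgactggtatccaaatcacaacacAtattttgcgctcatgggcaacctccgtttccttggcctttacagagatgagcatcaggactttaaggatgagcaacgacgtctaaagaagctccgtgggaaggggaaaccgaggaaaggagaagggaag
Mrps33 averaged 16.7 FPKM at 3 months and 16.4 at 12 months, and Gm5776 15.2 and 74.0. The copies of Mrpl42 (Gm6419, 143 and 131 FPKM at the 2 ages) and Mrpl48 (Mrpl48-ps, 17.3 and 20.6 FPKM) were also abundant.

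Levels spanned a wide range in a common order at both ages. The median member stood between 34.7 and 51.9 FPKM in the 3-month libraries and between 49.5 and 56.0 in the 12-month libraries. Mrps21 was the highest at 3 months, at 329.8, 276 and 258 FPKM in the controls. Mrpl42 (209 ± 30.3 FPKM) and Mrpl30 (133 ± 18.6 FPKM) followed in the 3-month controls (SD, n = 3 each), and their spreads did not meet. The same 3 genes led at 12 months, with Mrpl42 at 348 ± 25.2, Mrps21 at 319 ± 8.85 and Mrpl30 at 258 ± 3.78 FPKM in the controls (SD, n = 2 each), where Mrpl42 and Mrps21 did not differ beyond their spread. Spearman's rho between mean control levels at the 2 ages was 0.87 over the 77 genes, as a description across genes. FPKM is scaled to length, so these levels can be compared between genes within an age, but with limits. Mean level still fell with transcript length over the members tested (Spearman's rho of -0.43 at 3 months and -0.32 at 12). Mrps21 and Mrpl42 are also among the 20 genes with a near-identical copy.

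The 3-month comparison asks how the knockout label relates to these genes in younger hearts. Most members were somewhat higher in the knockout libraries, and none passed the test. Of the 77 genes, 70 had a difference above 0 (65.0% of all 12200 tested genes did), and 7 were below. The median log2 difference was 0.25, against 0.09 over all tested genes, and the range was -0.23 to 0.84. With limma and Benjamini-Hochberg adjustment over all tested genes, 0 members were called at an adjusted p under 0.05, where 0.746% of all genes were called, and the lowest member had an adjusted p of 0.0859 (Mrps10). Every knockout library was above every control for 33 members (42.9%, against 20.1% of all genes) and below for 1, Mrps2 (4.6% of all genes).

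At an unadjusted p under 0.05, limma gave 26 members (33.8%), all higher in the knockout libraries, against 18.2% of all genes. That count changed with single libraries. It was 7 without control replicate 3 (9.09%, against 13.6% of all genes in the same fit), 10 without control replicate 2 (13.0% against 15.7%), 8 without knockout replicate 2 (10.4% against 10.6%) and 14 without knockout replicate 1 (18.2% against 16.5%). It was 32 without control replicate 1 (41.6% against 18.3%) and 24 without knockout replicate 3 (31.2% against 17.5%). After rescaling each library to the same sum (TPM) it was 4 (5.19% against 8.24%), and 7 after median-of-ratios rescaling (9.09% against 16.8%). Messenger RNAs encoded in mitochondrial DNA enter the sums of the TPM rescaling. They made up 70666 to 261117 FPKM of the control libraries and 136063 to 156543 of the knockout libraries. Both rescalings centred all genes near 0 (medians of 0.0022 and 0.0007), and 60 of the 77 members then stayed above 0, with medians of 0.15 and 0.14.

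**Figure D1:**
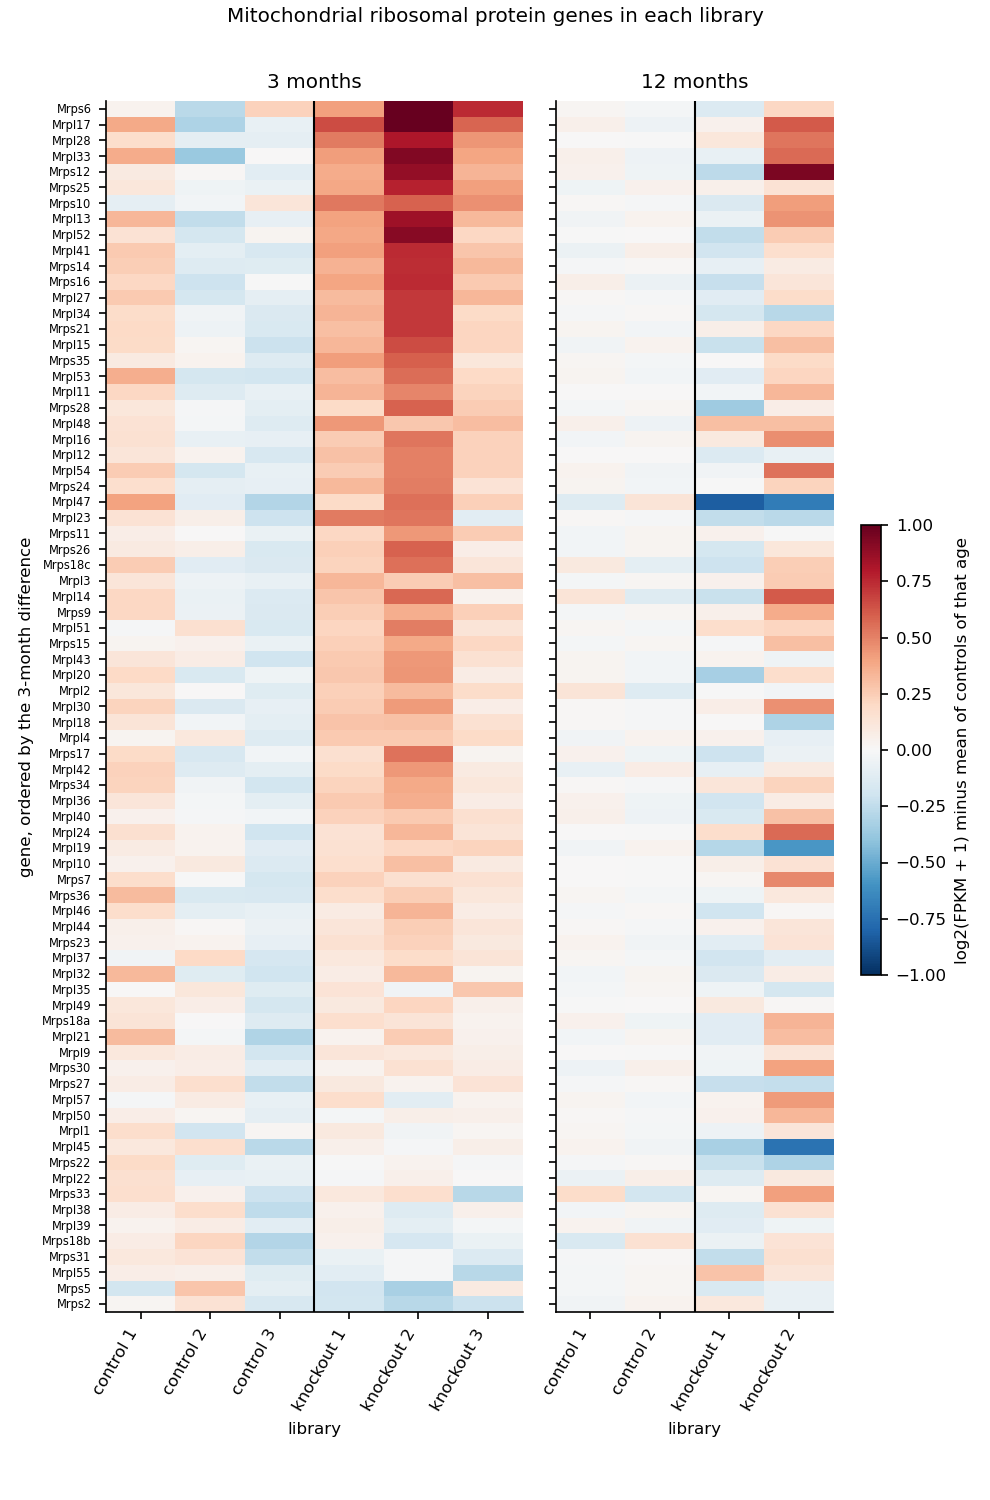
Log2(FPKM + 1) of each of the 77 genes (rows, ordered by the 3-month difference) in each library (columns), minus the mean of the controls of that age; red is higher and blue lower, and the scale ends at 1 in either direction. At 3 months red covers most of the knockout columns and is deepest in knockout replicate 2. At 12 months the knockout columns differ from each other, with Mrpl47, Mrpl45 and Mrpl19 blue in both.

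Both subunits shared the 3-month direction. In the large subunit 47 of 50 genes were higher (median 0.24, every knockout above every control for 20), and in the small subunit 22 of 26 (median 0.29, 13 apart). Among genes with a bacterial counterpart 43 of 45 were higher, with a median of 0.29 and 24 apart. Among those specific to mitochondria 25 of 30 were higher, with a median of 0.16 and 9 apart. Median transcript length was 1160 bases in the genes with a bacterial counterpart and 1420 in those specific to mitochondria. At 12 months the median differences of these 2 classes were 0.03 and 0.04. Of all tested genes 20.1% were apart in this direction at 3 months. No test of the difference between these groups was made. The cytosolic ribosomal protein genes, whose products build the ribosome of the cytoplasm, went further. Of 75 tested, 71 were higher with a median of 0.43, and 47 (62.7%) were apart. Of them Rpl29, Rps7 and Rpl34 were called higher and Rplp0 lower, which are named after their values were seen.

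Mrps6, a small-subunit protein with a bacterial counterpart (chr16:92058270-92112227, plus strand), had the highest 3-month difference. Its controls read 40.9, 32.9 and 47.0 FPKM, and its knockout libraries 53.3, 103 and 67.7. All knockout libraries were above all controls, with replicate 2 far above the others. Group means of 40.2 ± 7.09 and 74.7 ± 25.6 FPKM (SD, n = 3 each) differed by 0.84 on the log2 scale (SE 0.24), which does not pass (limma, adjusted p = 0.149). Mrpl17, a large-subunit protein near the tunnel exit (chr7:105803206-105811099, minus strand), read 57.8, 35.5 and 41.8 against 69.9, 105 and 66.6 FPKM. Again the groups were apart and knockout replicate 2 was highest (0.82, SE 0.22, limma, adjusted p = 0.140). Leaving out that library gave 0.58 for Mrps6 and 0.62 for Mrpl17.

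Mrpl28 (chr17:26123500-26126613, plus strand), a large-subunit protein with a bacterial counterpart, read 83.6, 69.3 and 69.3 FPKM in controls against 106, 129.8 and 100.4 FPKM. The groups did not overlap (0.59, SE 0.15, limma, adjusted p = 0.118). Mrpl33, one of the smallest large-subunit proteins, read 144, 85.7 and 112 against 149, 212 and 147 FPKM. Control replicate 1 came close to the lowest knockout library there (0.58, SE 0.22, limma, adjusted p = 0.218). Mrps12, which lines the decoding centre, read 55.3, 52.4 and 48.3 against 67.5, 96.5 and 65.9 FPKM (0.53, SE 0.16, limma, adjusted p = 0.174).

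Mrps10, a protein of the small-subunit head, had the lowest p of the members and the tightest groups among the large differences. Its controls read 11.5, 12.0 and 13.4 FPKM, and its knockout libraries 18.1, 19.0 and 17.2. Group means of 12.3 ± 0.997 and 18.1 ± 0.869 FPKM (SD, n = 3 each) differed by 0.52 on the log2 scale (SE 0.11), short of the threshold (limma, adjusted p = 0.0859). No library of either group lay far from the others. This gene is described outside the naming rule, for the values seen.

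Among the lowest members, Mrps2, a small-subunit protein with a bacterial counterpart, was the one gene with every knockout library below every control. It read 13.6, 14.9 and 11.9 FPKM in controls against 11.7, 10.9 and 11.4 FPKM (-0.23, SE 0.12, limma, adjusted p = 0.344). The gap between the groups was small. Mrps5 (-0.14), Mrpl55 (-0.13), Mrps31 (-0.07) and Mrps18b (-0.06) followed, each with overlapping groups and a limma adjusted p of 0.615 or more. Without control replicate 2 the differences of Mrps31 and Mrps18b turned to 0.0022 and 0.05.

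Of the members with known roles beyond structure, Mrpl12, a stalk protein that also binds mitochondrial RNA polymerase, read 124, 117 and 102 against 139.6, 162 and 134 FPKM at 3 months. The groups were apart (0.34, SE 0.14, limma, adjusted p = 0.233). Mrpl11, at the base of that stalk, averaged 13.4 ± 1.82 and 17.3 ± 1.74 FPKM (SD, n = 3 each), also apart. The cardiomyopathy genes Mrpl3 (0.29) and Mrpl44 (0.16) had separate groups, and those of Mrps22 (0.01) overlapped. Mrps30 (0.09), Mrps18a (0.11) and Mrps36 (0.18) overlapped between groups.

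**Figure D2:**
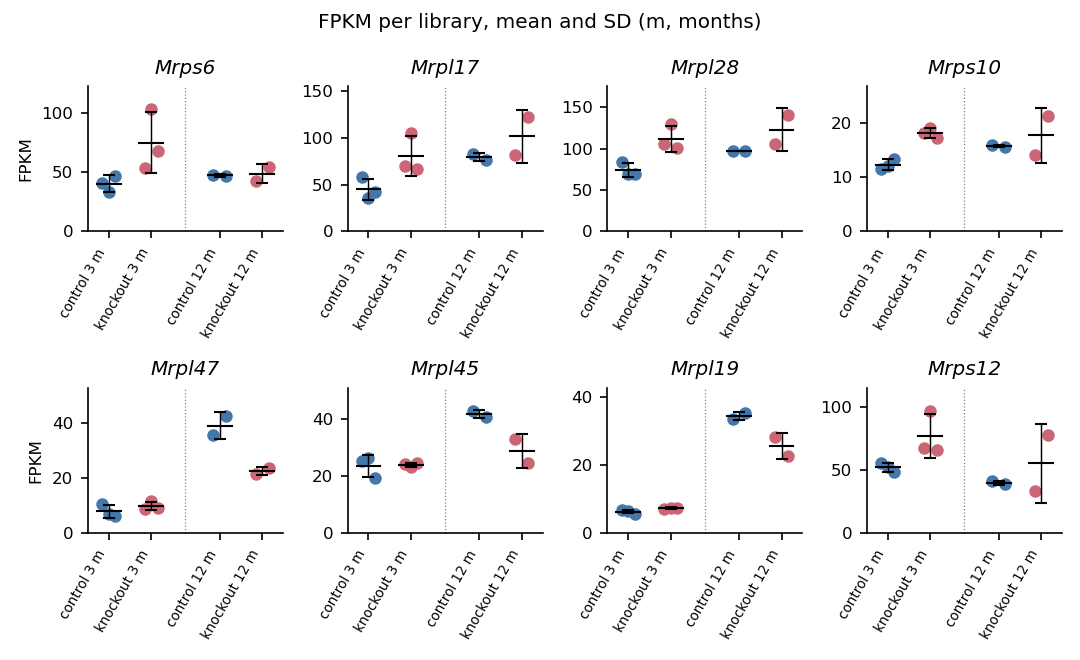
FPKM of 8 members in each library (points), with the group mean (bar) and SD, for controls (blue) and knockout libraries (red) at 3 and 12 months; axes start at 0. Mrps6, Mrpl17, Mrpl28, Mrps10 and Mrps12 have separate groups at 3 months, and Mrpl47, Mrpl45 and Mrpl19 have lower knockout values at 12 months. The 3-month points of Mrpl47 overlap, and Mrps12 spans 33.1 to 77.3 FPKM in the 12-month knockout libraries.

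The members' level also differed between libraries of the same label. Summed over the members, the controls held 4330, 3729 and 3560 FPKM and the knockout libraries 4618, 5529 and 4359. As a share of all FPKM these were 0.643%, 0.722% and 0.532% against 0.721%, 0.769% and 0.696%, and control replicate 2 was level with knockout replicate 1. These shares also depend on the mitochondrially encoded messenger RNAs, which ran from 70666 to 261117 FPKM among the controls. Knockout replicate 2 was the highest of the 6 libraries for 52 of the 77 members, against 40.5% of all tested genes. It stood a median of 0.21 (log2) above the other 2 knockout libraries, where the median over all genes was 0.06. Control replicate 1 likewise stood 0.19 above the other 2 controls, in 72 of 77 members, where all genes had a median of -0.02. Both shifts were larger in short transcripts. Spearman's rho between length and shift was -0.37 and -0.36 over the members, and much the same over all genes (-0.36 and -0.35).

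**Figure D3:**
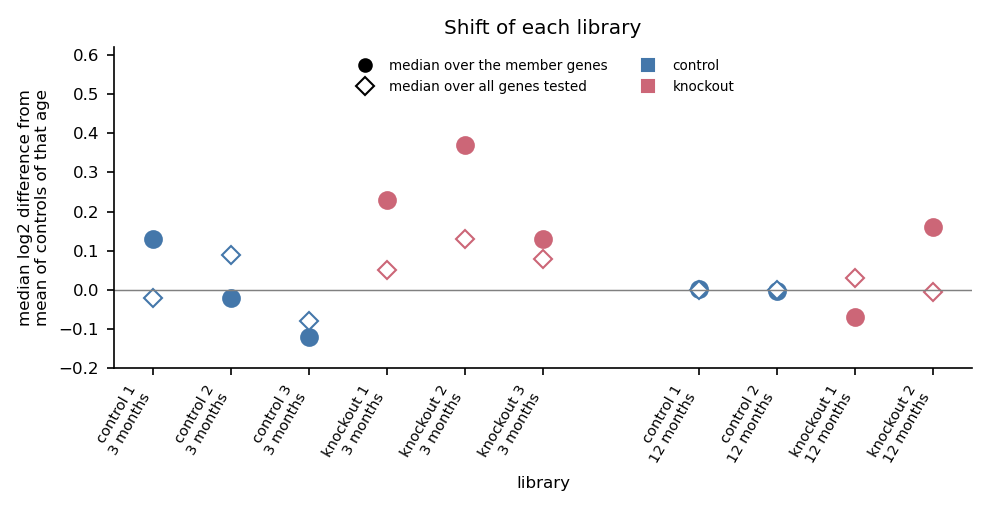
Median log2 difference of each library from the mean of the controls of its age, over the member genes tested (filled circles) and over all genes tested (open diamonds), for controls (blue) and knockout libraries (red). The member medians of the 3-month libraries run from -0.12 to 0.13 in controls and from 0.13 to 0.37 in knockout libraries. At 12 months the 2 knockout libraries lie at -0.07 and 0.16, on either side of the controls.

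The same dependence on length was seen in the knockout difference. The members' median transcript length was 1223 bases, against 2380 for all tested genes. Over 12159 tested genes with a length, Spearman's rho between length and 3-month difference was -0.46, and over the 77 members it was -0.22. Under 1000 bases 28 of 30 members were higher with a median of 0.29, and all genes of that length had a median of 0.32. From 1000 to 2000 bases 26 of 28 were higher, with medians of 0.23 in members and 0.20 in all genes. At 2000 bases or more 16 of 19 were higher, with a median of 0.14, while all genes had 0.01. The part of transcript length in the members' shift was not tested.

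**Figure D4:**
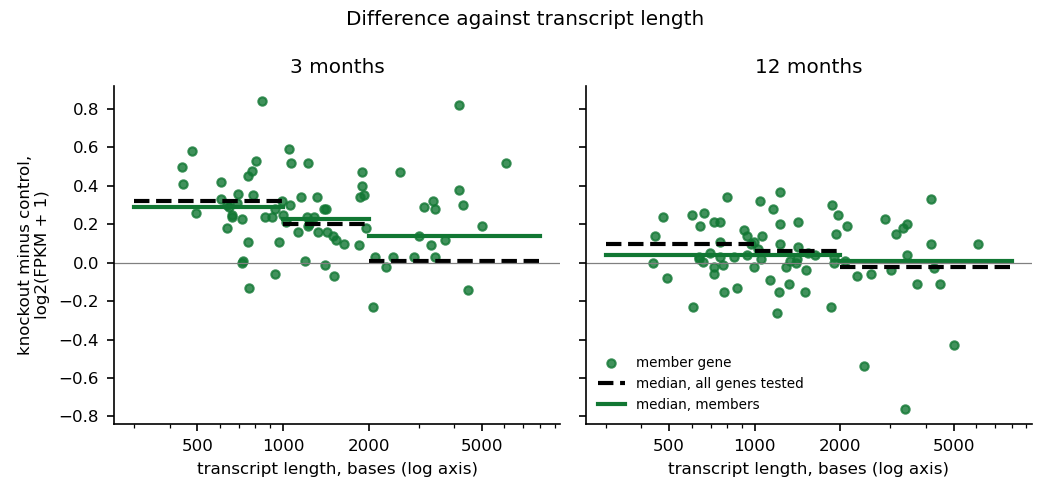
Knockout minus control difference (log2(FPKM + 1)) of each member tested against its transcript length (log axis), at 3 and 12 months; lines give the median of the members (solid green) and of all genes tested (dashed black) under 1000 bases, from 1000 to 2000 and at 2000 or more. At 3 months the 2 lines are close in the first 2 length classes (0.29 and 0.32, 0.23 and 0.20) and part in the longest (0.14 and 0.01).

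The 12-month comparison asks the same in older hearts, and there the members were split in direction. Of 76 members tested, 49 were higher and 27 lower in the knockout libraries, and 51.5% of all 13179 tested genes were higher. The median difference was 0.04, against 0.01 over all genes, and the range was -0.76 to 0.37. With limma 0 members were called (0.395% of all genes were), and the lowest adjusted p was 0.200 (Mrpl47). At an unadjusted p under 0.05 there were 4 members, Mrpl47, Mrpl45, Mrpl19 and Mrpl48, or 5.26%, against 13.6% of all genes. Both knockout libraries were above both controls for 18 members (23.7%, against 27.3% of all genes) and below for 12 (15.8%, against 23.0%).

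These 12-month counts depended on the scaling and on single libraries. Rescaling each library to the same sum left 3 of 76 members above 0, with a median of -0.28, while the median of all genes moved to -0.27. The members' median thus stayed close to that of all genes. Messenger RNAs encoded in mitochondrial DNA made up 180278 to 184505 FPKM of the control libraries and 278859 to 297339 of the knockout libraries, which enters those sums. Knockout replicate 2 was the highest of the 4 libraries for 54 of the 77 members (35.7% of all genes) and exceeded knockout replicate 1 in 61 of 76, by a median of 0.22 where all genes had -0.01. Spearman's rho between transcript length and that shift was -0.32 over the members and -0.4 over all genes. Without knockout replicate 1 the members' median difference was 0.16 (all genes -0.01), with 58 of 76 above 0. Without knockout replicate 2 it was -0.07 (all genes 0.02), with 26 above 0. With 1 knockout library left, that library is assumed to vary like the controls, so calls of such fits are not read as results about the members.

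The 5 lowest members at 12 months were all large-subunit genes but for Mrps22. Mrpl47, a protein at the tunnel exit (chr3:32725397-32737605, minus strand), read 35.6 and 42.7 FPKM in controls against 21.6 and 23.6 FPKM. The groups were well apart, at means of 39.1 and 22.6 FPKM (-0.76, SE 0.14, limma, adjusted p = 0.200). Mrpl45, which helps tether the mitoribosome to the inner membrane near its insertase (chr11:97315716-97329920, plus strand), read 42.8 and 40.8 against 33.1 and 24.6 FPKM (-0.54, SE 0.18, limma, adjusted p = 0.342). Mrpl19, at the face between the subunits (chr6:81957851-81965958, minus strand), read 33.6 and 35.3 against 28.1 and 22.7 FPKM (-0.43, SE 0.15, limma, adjusted p = 0.351).

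Mrps22 and Mrpl34 also had both knockout libraries below both controls. Mrps22 read 18.2 and 18.6 against 15.6 and 14.7 FPKM (-0.26, SE 0.11, limma, adjusted p = 0.393). Mrpl34 read 85.9 and 87.3 against 76.5 and 71.4 FPKM (-0.23, SE 0.11, limma, adjusted p = 0.446). None of the 5 passed with all 4 libraries. Without knockout replicate 1 the adjusted p was 0.0173 for Mrpl45, 0.0217 for Mrpl19, 0.0337 for Mrpl34, 0.0460 for Mrps22 and 0.0505 for Mrpl47, in a fit that called 33.4% of all genes. Without knockout replicate 2 it was 0.0847, 0.125, 0.114, 0.104 and 0.0846 for Mrpl45, Mrps22, Mrpl34, Mrpl19 and Mrpl47, with 4.98% of all genes called, and without either control it was 1.

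The highest 12-month differences were those of Mrpl24 (0.37), Mrps12 (0.34), Mrpl17 (0.33), Mrpl28 (0.32) and Mrpl48 (0.30), with limma adjusted p from 0.359 to 0.736. Mrps12 read 41.0 and 38.7 FPKM in controls against 33.1 and 77.3 FPKM, so its 2 knockout libraries lay on opposite sides of the controls. Without knockout replicate 2 its difference was -0.26, and without knockout replicate 1 it was 0.94. Mrpl48, a large-subunit protein specific to mitochondria, read 20.7 and 19.3 against 24.9 and 24.8 FPKM, with close agreement within the groups. After rescaling to the same sum the differences of Mrpl28 and Mrpl48 were -0.0030 and -0.01, above the median of all genes on that scale (-0.27). Mrpl12 (-0.11), Mrpl44 (0.08), Mrpl3 (0.15), Mrps30 (0.18), Mrps18a (0.11) and Mrps5 (-0.11) had small differences that did not pass.

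The difference between ages was tested as an interaction over all 10 libraries. Most members had a lower knockout difference at 12 than at 3 months, and none passed. Of 76 members 61 were below 0 (80.3%, against 59.2% of 11580 genes), with a median of -0.22 against -0.08 over all genes. With limma 0 members were called (1.38% of all genes), and 6 had an unadjusted p under 0.05 (7.89%, against 15.3%). After rescaling to the same sum 4 of 76 were above 0 and after median-of-ratios rescaling 29, with all-gene medians of -0.28 and 0.01. At both ages 45 members were higher, 24 were higher at 3 months and lower at 12, 4 the reverse, and 3 lower at both.

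**Figure D5:**
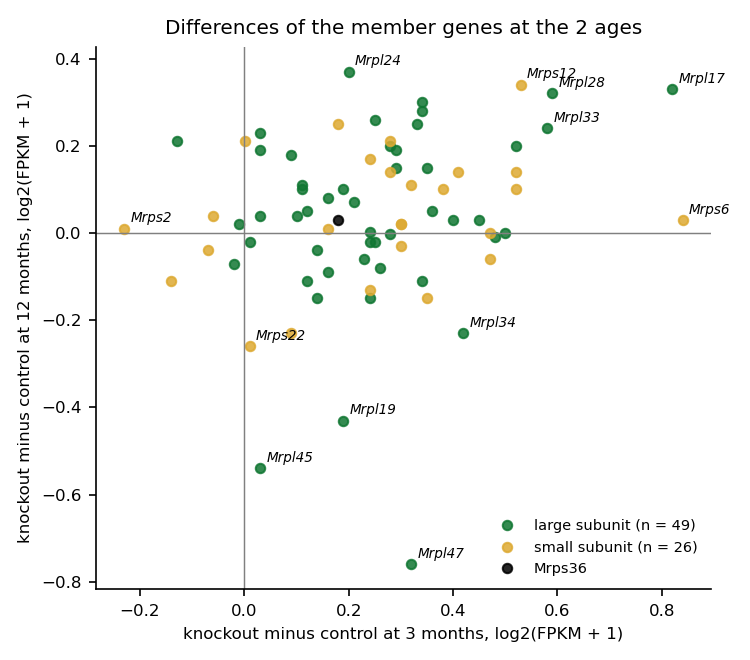
Knockout minus control difference of the 76 members tested at both ages, at 3 months (x axis) and 12 months (y axis), on the log2(FPKM + 1) scale; green points are large-subunit, yellow small-subunit genes and the black point is Mrps36. Most points lie right of 0, with 45 members higher at both ages and 24 higher at 3 months and lower at 12. Mrpl47, Mrpl45 and Mrpl19 lie lowest at -0.76, -0.54 and -0.43.

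Mrpl47 had the largest difference between ages, at -1.09 (SE 0.28, limma, adjusted p = 0.097). Its 3-month values, 10.5, 7.03 and 6.08 FPKM in controls and 8.91, 11.7 and 9.22 FPKM in the others, overlap and lean the other way. Mrps6 (-0.80, SE 0.35), Mrpl34 (-0.64, SE 0.23), Mrpl19 (-0.63, SE 0.18) and Mrpl45 (-0.57, SE 0.23) followed, with limma adjusted p of 0.311, 0.209, 0.118 and 0.273. Of these members only Mrps6 had overlapping 12-month groups, 47.9 and 46.5 against 42.9 and 54.5 FPKM, and its contrast comes from 3 months. Mrpl34 had separate groups at both ages, with differences of 0.42 at 3 months and -0.23 at 12. Mrpl12 (-0.45, limma, adjusted p = 0.287) was the sixth at an unadjusted p under 0.05. Leaving out 3-month control replicate 1 gave Mrpl47 a difference of -1.29 with an adjusted p of 0.0381, and leaving out 12-month knockout replicate 1 gave Mrpl19 -0.77 with 0.0289 (limma), the only member called in each case. Across the 76 members Spearman's rho between the differences at the 2 ages was 0.23, and over all 11580 genes 0.14.

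Many members share their start region with a neighbour on the opposite strand. Starts within 1000 bases of each other and facing apart were found for 18 of the 77 genes (23.4%), against 10.3% of tested protein-coding genes. Mrps12 faces the mitochondrial seryl-tRNA synthetase gene Sars2, 172 bases away, with 3-month differences of 0.53 and 0.02. Mrps34 and its neighbour Eme2 start 29 bases apart, and their 3-month differences were 0.24 and 0.12. Over such pairs with both genes tested, Spearman's rho between the 2 differences was 0.19 at 3 months (15 pairs) and -0.36 at 12 months (16 pairs), as a description. Another 15 members (19.5%, against 6.20%) have their start and the neighbour's in the opposite order, so that the annotated genes overlap there. Mrpl46 and Mrps11 overlap each other in this way, with starts 412 bases apart and 3-month differences of 0.16 and 0.30. Mrpl47 and the complex I gene Ndufb5, with starts 615 bases apart, had 12-month differences of -0.76 and 0.09 and a mean of 816 FPKM for Ndufb5. The sources used here do not say whether the counting used strand, so the values of these 15 members are uncertain.

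The rest of the mitochondrial translation machinery gave a mixed picture at 3 months, when 65.0% of all tested genes were higher (median 0.09). Of 6 mitoribosome proteins with other symbols 5 were higher (median 0.39), among them Dap3, a small-subunit GTP-binding protein, at 61.0, 57.5 and 58.2 against 80.5, 99.1 and 66.9 FPKM (0.46, limma, adjusted p = 0.192) and Aurkaip1 (0.36). Of 27 assembly and ribosomal RNA modification genes 19 were higher (median 0.15), led in p by the rRNA methyltransferase gene Tfb1m (0.47, limma, adjusted p = 0.117) and Mpv17l2 (0.59). Of 15 translation factors 8 were higher (median 0.01), with the elongation factor gene Tsfm at 0.43 and the RNA-stabilising Lrpprc at -0.27. Of 17 mitochondrial tRNA synthetases 8 were higher (median -0.01), with Cars2 at 0.25 and Ears2 at 0.30. Of 12 genes for mitochondrial DNA upkeep and transcription 8 were higher (median 0.03), with the elongation factor gene Tefm at 0.45 and Tfam, which packages mitochondrial DNA, at 0.24. None of these genes passed the test.

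Among 11 regulators of nuclear mitochondrial genes 3 were higher at 3 months (median -0.10), and 1 passed. Atf5, which encodes a factor that switches on genes of the mitochondrial unfolded protein response, read 92.0, 108 and 80.2 FPKM in controls against 39.2, 37.9 and 40.8 FPKM. It fell by 1.22 on the log2 scale (SE 0.14, limma, adjusted p = 0.00892). Ppargc1b stood at 0.24. Nrf1 and Gabpa, whose motifs were searched above, each had a difference of -0.13 with overlapping groups. Of 11 mitochondrially encoded mRNAs tested 5 were higher (median -0.06), and their differences ran from -5.52 to 4.97. The 2 of lowest p were mt-Atp8 at -0.90 (limma, adjusted p = 0.221) and mt-Nd4l at -0.86. mt-Co1 and mt-Cytb, highly abundant in any heart, were listed under 0.1 FPKM in every 3-month library, so some mitochondrial values in these tables can be failed estimates.

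At 12 months 0 genes of these lists passed, and 51.5% of all tested genes were higher. The 8 mitochondrially encoded mRNAs tested were all higher in the knockout libraries (median 0.72). mt-Nd1 read 28159 and 28615 FPKM in controls against 49437 and 49509 FPKM (0.80, limma, adjusted p = 0.184), and mt-Nd4 stood at 0.73. In that table mt-Co2, mt-Co3, mt-Atp6, mt-Atp8 and mt-Nd4l were listed under 0.1 FPKM throughout. The proteins of the mitoribosome with other symbols had 5 of 6 higher (median 0.15, Dap3 and Gadd45gip1 at 0.19 each), translation factors 7 of 15 (-0.01, Mtif2 at -0.53 and Mrrf at 0.33) and assembly genes 15 of 28 (0.06, Eral1 at -0.35 and Dhx30 at -0.34). For tRNA synthetases it was 7 of 17 (-0.11, Pars2 at -0.29), for DNA upkeep 7 of 11 (0.07, Tfb2m at 0.59 and Ssbp1 at 0.24) and for regulators 5 of 11 (-0.06, Atf4 at 0.59 and Yy1 at 0.36). Gabpa (-0.33) and Nrf1 (0.19) differed in sign. Of the cytosolic ribosomal protein genes 61 of 72 were higher at 12 months, with a median of 0.17.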

How the data were processed

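Members, gene lists and comparisons were chosen with earlier results of these data known. The authors deposited FPKM, 1 table per age, per the file headers. Per the submitters' processing notes, the tools were Cufflinks 2.1.1, STAR 2.5.1b, TopHat2 2.1.0 and FastQC and the builds mm10 and GRCm38, and the role of each is not stated there. Whether libraries were also scaled against each other is unknown. The 12-month table is described in its name as free of outliers, with no rule. Rows sharing an identifier (69 at 3 months) were summed. Identifiers were matched to GENCODE M21 (GRCm38) for 46297 and 46484 genes and not for 489 and 493.

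Labels gave the groups and replicate numbers. Genes averaging at least 1 FPKM were tested on log2(FPKM + 1) by limma 3.58.1 (R 4.3.3) with a variance trend and Benjamini-Hochberg adjustment over all genes, called under 0.05, separately per age and as an interaction over the 11580 genes tested at both. Folds on this scale understate changes of low genes. Residual degrees of freedom were 4 and 2. Summed FPKM was 516272 to 718787 per library at 3 months and 890181 to 1171104 at 12 months. At 12 months 81.2% to 83.9% of low values lay within 0.05 of a whole number of reads (10% by chance at 1 setting), for a depth of 21.5 to 31.2 M reads. At 3 months 19.1% to 33.4% did, and that depth is unknown. On simulated data the test recovered 50.7% of 1.5-fold and 98.5% of 2-fold changes at 3 months (12200 genes), and 0% and 52.2% at 12 months (13179 genes). The simulation changed 67 genes for each of these folds, taken only from genes well above the minimum level. It also moved the spread of each gene toward the median, so these shares do not cover low or noisy genes. It drew the noise of each gene independently, so it held no shift shared by many genes of a library.

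Named with values were the 5 highest and 5 lowest differences per age, the 3 highest levels, members under the minimum, the 5 largest differences between ages, members of known role (Mrpl3, Mrpl11, Mrpl12, Mrpl44, Mrps5, Mrps6, Mrps12, Mrps18a, Mrps22, Mrps30, Mrps36), and per list the 2 genes of lowest p, of which 1 is not reported here. Near-identical copies were sought with blastn 2.17.0. Length is the annotation's transcript length. Endothelial (146 to 185 against 166 to 172 FPKM summed), macrophage (174 to 227 against 207 to 349) and adipocyte markers (508 to 611 against 597 to 688) were also read at 3 months, none called.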

Additional observations from a re-analysis of the deposited data

How the results depend on the processing

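Pseudocount, minimum level, variance trend, scaling, a replicate block and leaving out each library were tried. At 3 months 0 members were called under each alternative, and the members' median ran from 0.19 to 0.34 when 1 library was left out. At 12 months leaving out 1 library gave medians of -0.07 to 0.16 and 0 to 28 members called, the 28 without knockout replicate 1, and rescaling to the same sum gave a median of -0.28. For the difference between ages leaving out 1 library gave 0 to 1 members called, the 1 being Mrpl19 without 12-month knockout replicate 1 and Mrpl47 without 3-month control replicate 1. Directions turned for Mrps18b (from -0.21 to 0.05 over the fits without 1 library) and Mrps31 (-0.19 to 0.0022) at 3 months without control replicate 2, and at 12 months for Mrps12 (-0.26 to 0.94) without knockout replicate 2; the cause was not tested. Rescaling to the same sum lowered all genes at 12 months (median from 0.01 to -0.27), which by construction took Mrpl28 to -0.0030 and Mrpl48 to -0.01. Other values kept their direction and side of the threshold or, for single members at 12 months and between ages without 12-month knockout replicate 1 or 3-month control replicate 1, passed it.

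Same-numbered libraries did not deviate together (r of -0.121, -0.458 and -0.143 at 3 months, -0.006 at 12). These values gave no sign of pairing by number but cannot exclude it. At 12 months the deviations of the 2 libraries of a group mirror each other, so r there is a single value. With the replicate block 0 members were called at 3 months, at 12 months and between ages, with medians of 0.25 and 0.04, and 29, 40 and 55 genes overall. All genes called were 91 at 3 months (76 higher), 142 after rescaling to the same sum, 59 after median-of-ratios (42 higher), 10 with no minimum, and 22, 29 and 59 without control replicate 2, control replicate 3 and knockout replicate 2. They were 52 at 12 months (17 with no minimum, 0 without either control, 4409 and 654 without knockout replicate 1 and 2). Between ages they were 160 (76 higher), 137 (38 higher) after rescaling to the same sum and 213 (132 higher) after median-of-ratios, and 40 to 787 without 1 library. In the simulation with 2 libraries a group at 12 months, 0% of 1.5-fold changes were recovered.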
